A study of Homo sapiens with 4 samples.

Results

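The RAS-MAPK feedback genes are a group of 10 genes switched on by ERK signalling, most of which encode brakes on the same pathway. They were taken by symbol from a table of 57820 genes in RNA-seq of SK-N-SH cells, and all 10 were found and passed the filter on low counts. They are the phosphatases *DUSP4*, *DUSP5* and *DUSP6*, the Sprouty and SPRED genes *SPRY1*, *SPRY2*, *SPRY4*, *SPRED1* and *SPRED2*, and the ETS transcription factors *ETV4* and *ETV5*. The SK-N-SH line was established from a human neuroblastoma and is known to carry an activating NRAS mutation. Of the 4 libraries, 2 came from cells given a lentivirus with the long noncoding RNA *RP5-998N21.4* under the EF1a promoter (*RP5-998N21.4* OE) and 2 from cells given the empty lentivirus (vector control). Both groups were therefore transduced. The control titles read WT, and their treatment label was followed. The sources used here do not state whether replicates were separate transductions, so p values measure the spread between these libraries, which may be technical.

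In this pathway, growth factor receptors load RAS with GTP, and RAS activates the RAF, MEK and ERK kinases in turn. ERK activity induces genes that limit it. DUSP phosphatases remove the activating phosphates from MAP kinases, Sprouty proteins act between receptors and RAF, and SPRED proteins bring the RAS inactivator neurofibromin to the membrane. The ETV factors belong to the PEA3 group and carry ERK output to other genes, while the repressor Capicua (*CIC*) holds several of these genes down until ERK inactivates it. Levels of the feedback genes are widely read as a gauge of ERK pathway output.

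The libraries held from 23785164 to 28307591 counts. The overexpressed gene was counted 32 and 33 times in vector control cells and 2407 and 2808 times in OE cells. Of 10 neuroblastoma markers, 9 were detected and *TH* had 0 counts in the 4 libraries. Of 7 markers of other tissues, *ALB*, *CD3E* and *INS* had 0 counts, and the summed level of the list was from 0.917 to 2.17 CPM (counts per 1000000 counts of the library size, normalized by edgeR's TMM method). The tested neuroblastoma markers had higher values in OE, and most of the mesenchymal markers had lower values. The summed level of the neuroblastoma markers was 460 and 528 CPM in the vector control and 908 and 865 CPM in OE, and 9 of 9 tested markers had higher values in both OE libraries than in both vector control libraries, beside 27.8% of all tested genes. Of the 8 mesenchymal markers, 6 were lower in both OE libraries and 1 was higher, beside 27.6% and 27.8% of all tested genes. Their summed level was 2471 and 2275 CPM in the vector control and 2762 and 1802 CPM in OE, of which *VIM* took 1254 CPM in OE replicate 1 and from 348 to 376 CPM in the other 3 libraries. The part of this shift in the results below was not tested. In bulk RNA, fewer cells of a type and less RNA per cell cannot be told apart.

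To show the regulatory sequence in front of the feedback genes, promoters were read from a table of RefSeq sequences (GRCh38.p14), in which 6 of the 10 genes were matched to 10 promoters. The 250 bases before the start are given 5′ to 3′ for *SPRED1*, the lower of the 2 genes that passed DESeq2's test (below), and for *DUSP6* and *SPRY4*, which did not pass it. Each of the 3 has a single promoter there. Capitals mark an ETS core (CGGAA) or a Capicua octamer (TGAATGAA, TGAATGGA, TCAATGAA or TCAATGGA), on either strand.
SPRED1, chr15:38252586-38252835, plus strand: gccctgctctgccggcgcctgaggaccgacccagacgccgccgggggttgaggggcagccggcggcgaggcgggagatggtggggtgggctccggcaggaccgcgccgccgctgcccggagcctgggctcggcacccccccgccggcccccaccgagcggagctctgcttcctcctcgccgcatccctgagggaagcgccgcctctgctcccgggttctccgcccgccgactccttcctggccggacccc
DUSP6, chr12:89352502-89352751, minus strand: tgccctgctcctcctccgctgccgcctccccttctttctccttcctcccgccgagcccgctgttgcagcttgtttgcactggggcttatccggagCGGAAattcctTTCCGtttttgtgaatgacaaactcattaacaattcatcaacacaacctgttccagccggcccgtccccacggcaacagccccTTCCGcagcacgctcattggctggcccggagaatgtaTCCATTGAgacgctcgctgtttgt
SPRY4, chr5:142324248-142324497, minus strand: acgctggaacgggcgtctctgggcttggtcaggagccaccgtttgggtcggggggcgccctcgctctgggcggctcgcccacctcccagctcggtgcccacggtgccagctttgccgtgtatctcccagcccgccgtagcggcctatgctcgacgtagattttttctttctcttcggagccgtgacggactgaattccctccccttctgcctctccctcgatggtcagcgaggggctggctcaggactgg

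The *DUSP6* promoter held 3 ETS cores, the closest of them from base -61 to base -57 relative to the start, and 1 Capicua octamer from base -24 to base -17. Neither set of letters was present in the windows of *SPRED1* and *SPRY4*. Over the 10 promoters, 3 held an ETS core (*DUSP6*, *SPRY1* and *SPRY2*), against 30.3% of 35116 promoters in the table. The Capicua octamers were in 1 of the 10 promoters and in 3.18% of all promoters. Neither the AP-1 motif TGANTCA nor the CRE motif TGACGTCA was in any of the 10, and they were in 6.57% and 1.65% of all promoters. These matches describe letters in a window and not sites of binding.

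The question was whether the feedback genes differed between *RP5-998N21.4* OE and vector control cells, tested gene by gene in a fit over 20528 genes. The feedback genes did not share 1 direction, with 4 at higher and 6 at lower values in OE. Of the 4, *SPRY4* had a log2 fold change of -0.0023 without OE replicate 2 and *ETV5* -0.0095 without OE replicate 1. *DUSP4* was higher in OE by 52.9%, *SPRED1* was lower by 29.9% and *SPRY2* was lower by 22.3%, and *DUSP6*, *SPRY4*, *SPRED2*, *ETV4* and *ETV5* differed by less than 10% between group means in the fit. At the study's thresholds (adjusted p under 0.01 and absolute log2 fold change above 0.5), edgeR's quasi-likelihood test called 0 of the 10 genes and 0% of all tested genes. The overexpressed gene was not called either, at a log2 fold change of 6.11 and an edgeR adjusted p of 0.0109. A count of 0 at this threshold therefore does not show that a gene was unchanged. The unadjusted p of edgeR was under 0.05 for 3 of the 10 (*DUSP4* higher, *SPRED1* and *SPRY2* lower), beside 20.8% of all tested genes (10.1% higher and 10.7% lower). DESeq2's Wald test, the tool named in the study's methods, called 2 of the 10 at the same thresholds (*DUSP4* and *SPRED1*), beside 8.77% of all tested genes (4.35% higher and 4.42% lower), and limma-voom called 0. The median log2 fold change of the 10 genes was -0.10, beside 0.01 for all tested genes. In 5 of the 10 genes both OE libraries lay on 1 side of both vector control libraries (1 higher and 4 lower), which is near the 55.4% of all tested genes that did so (27.8% higher and 27.6% lower). With 3 libraries this count was 8 without vector control replicate 1, 7 without vector control replicate 2, 7 without OE replicate 1 and 8 without OE replicate 2, beside 77.5%, 77.2%, 76.2% and 77.8% of all genes tested in those fits.

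**Figure D1:**
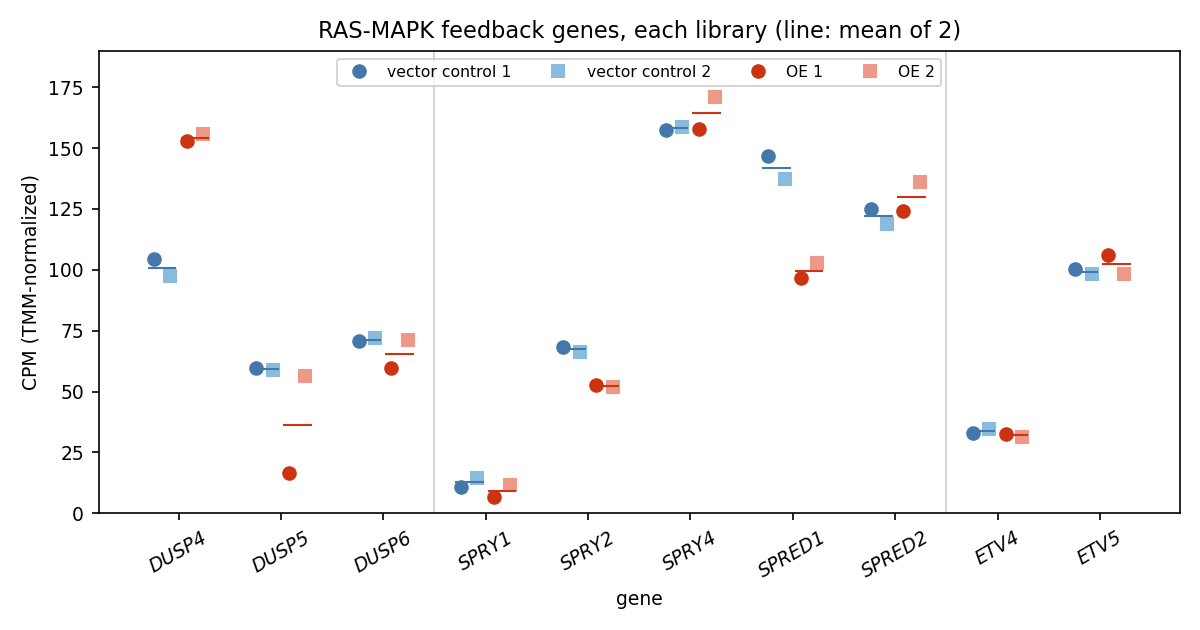
Level of each feedback gene in CPM (vertical axis, from 0) in the 4 libraries, with vector control in blue, OE in red, circles for replicate 1 and squares for replicate 2, and a line at each group mean. *DUSP4* is near 101 CPM in the vector control and 154 CPM in OE, *SPRED1* near 142 and 99.6 CPM, and *DUSP5* is at 16.7 CPM in OE replicate 1 only.

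Of the 3 dual-specificity phosphatases, 1 had higher and 2 had lower values in OE. *DUSP4* (ENSG00000120875.4) encodes a nuclear phosphatase of ERK and other MAP kinases and lies at chr8:29190581-29208201 (hg19, minus strand). Vector control replicates had 2429 and 2291 counts, and OE replicates had 3833 and 4509. Its level was 104 and 97.5 CPM in the vector control and 153 and 156 CPM in OE. Both OE libraries were thus above both vector control libraries, and the replicates of each group lay close together. The group means were 101 ± 4.82 CPM (SD, n = 2) and 154 ± 2.21 CPM (SD, n = 2). The log2 fold change was 0.61 (SE 0.0775, edgeR adjusted p = 0.0768, DESeq2 adjusted p = 2.9e-14). Leaving out 1 library at a time gave values from 0.56 to 0.66.

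*DUSP6* (ENSG00000139318.7) encodes a cytoplasmic phosphatase selective for ERK and lies at chr12:89741012-89746278 (hg19, minus strand). Its counts were 1650 and 1688 in vector control cells, against 1501 and 2058 in OE. The levels were 70.9 and 71.8 CPM in the vector control and 59.8 and 71.1 CPM in OE. OE replicate 2 lay within the vector control values and OE replicate 1 below them. The log2 fold change was -0.12, with a 95% interval from -0.47 to 0.22 (edgeR adjusted p = 0.622), so that a change as large as that of *DUSP4* in either direction lay outside the interval. With 1 library left out, the log2 fold change was from -0.25 to -0.0035. The annotation places an antisense lncRNA (ENSG00000274021) on 862 bases of a *DUSP6* exon. The sources used here do not state that counting used strand, and reads from the 2 strands cannot then be told apart.

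*DUSP5* (ENSG00000138166.5) encodes a nuclear ERK phosphatase and lies at chr10:112257665-112271291 (hg19, plus strand). Vector control cells gave 1387 and 1381 counts, against 419 and 1627 in OE. In CPM it was at 59.6 and 58.8 in the vector control, and at 16.7 and 56.2 in OE. OE replicate 1 stood apart from the other 3 libraries, and the OE replicates differed 3.37-fold, where, at a mean level of 10 CPM or more, 7.34% of 11458 genes had OE replicates over 2-fold apart and 6.71% had vector control replicates that far apart. The log2 fold change was -0.70 (SE 0.629, edgeR adjusted p = 0.589), -0.07 without OE replicate 1 and -1.83 without OE replicate 2 (edgeR adjusted p = 0.081). All 419 counts in OE replicate 1 were on the transcript ENST00000369583.3, which held the *DUSP5* counts of the other libraries as well, apart from 2 counts in vector control replicate 1. The pseudogene *DUSP5P1* was counted 192 and 230 times in vector control cells and 228 and 344 times in OE. Whether *DUSP5* reads were counted there was not tested.

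Because *DUSP4* and *DUSP6* are measured in the same library, their ratio does not depend on the normalization between libraries. There were 1.47 and 1.36 counts of *DUSP4* per count of *DUSP6* in the vector control and 2.55 and 2.19 in OE, and the groups did not overlap. Against *SPRED1*, *DUSP4* had 0.711 and 0.71 counts per count in the vector control and 1.58 and 1.52 in OE. The smallest two-sided p of an exact permutation test on 2 against 2 libraries is 0.333, and no test of the ratios was made.

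Of the 5 Sprouty and SPRED genes, 3 had lower and 2 had higher values in OE. *SPRED1* (ENSG00000166068.8), a cofactor of neurofibromin in switching RAS off, lies at chr15:38545037-38649450 (hg19, plus strand). Its counts were 3415 and 3229 in vector control cells, against 2422 and 2972 in OE. Its level was 147 and 137 CPM in the vector control and 96.5 and 103 CPM in OE, and both OE libraries lay below both vector control libraries. The group means were 142 ± 6.53 CPM (SD, n = 2) and 99.6 ± 4.40 CPM (SD, n = 2). The log2 fold change was -0.51 (SE 0.0839, edgeR adjusted p = 0.0983, DESeq2 adjusted p = 7.7e-08). This is close to the limit of 0.5 on the fold change, and leaving out 1 library at a time moved the value from -0.56 to -0.47.

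*SPRED2* (ENSG00000198369.5), the close relative of *SPRED1*, lies at chr2:65537985-65659771 (hg19, minus strand). Its level was 125 and 119 CPM in the vector control and 124 and 136 CPM in OE, and the groups overlapped. It differed by 0.09 on the log2 scale, with a 95% interval from -0.16 to 0.34 (edgeR adjusted p = 0.612). The counts of *SPRED1* per count of *SPRED2* were 1.17 and 1.15 in the vector control and 0.778 and 0.755 in OE. In the vector control *SPRED1* had more counts than *SPRED2*, and in OE it had fewer. The relative *SPRED3*, which is not among the 10 genes, had 14.9 and 17.7 CPM in the vector control and 9.56 and 11 CPM in OE (log2 fold change -0.67, SE 0.162, edgeR adjusted p = 0.153, DESeq2 adjusted p = 0.00391), and its edgeR log2 fold change was -0.34 on the leading transcript.

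Among the Sprouty genes, *SPRY2* (ENSG00000136158.6) was the one whose groups did not overlap. It lies at chr13:80910111-80915261 (hg19, minus strand), and its counts were 1589 and 1559 in vector control cells, against 1318 and 1504 in OE. Its level was 68.2 and 66.3 CPM in the vector control and 52.5 and 52 CPM in OE, so that both OE libraries were lower. The means were 67.3 ± 1.34 CPM (SD, n = 2) and 52.3 ± 0.374 CPM (SD, n = 2), and the log2 fold change was -0.36 (SE 0.0839, edgeR adjusted p = 0.145). In DESeq2 the adjusted p was 2.7e-05, and the fold change stayed under the limit of 0.5, so that *SPRY2* was not called.

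*SPRY4* (ENSG00000187678.8) lies at chr5:141689992-141706020 (hg19, minus strand), and had the highest level of the 10 genes. It was at 157 and 159 CPM in the vector control and at 158 and 171 CPM in OE, and the groups overlapped. It differed by 0.06 on the log2 scale, with a 95% interval from -0.16 to 0.27 (edgeR adjusted p = 0.719). The ratio of *SPRY2* to *SPRY4* counts was 0.433 and 0.418 in the vector control and 0.333 and 0.304 in OE. *SPRY1* (ENSG00000164056.6) lies at chr4:124317950-124324915 (hg19, plus strand), and had the lowest level. Its counts were 256 and 344 in vector control cells and 172 and 334 in OE, or 11 and 14.6 CPM against 6.85 and 11.5 CPM. The groups overlapped, and the interval of the log2 fold change of -0.48 was wide, from -1.43 to 0.48 (edgeR adjusted p = 0.488). Leaving out 1 library at a time gave values from -0.90 to -0.15. The remaining relative *SPRY3* had 0 counts in the 4 libraries, each of which allows up to 3 counts (counting error only).

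**Figure D2:**
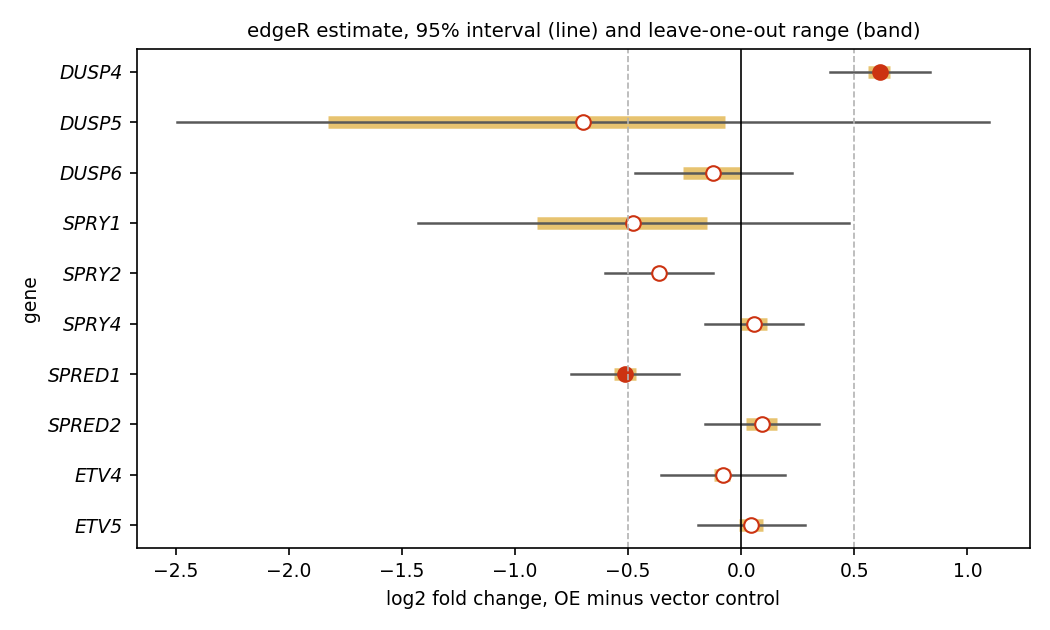
Log2 fold change of each feedback gene (horizontal axis, OE minus vector control) from edgeR, with its 95% interval as a line, the range over fits that leave out 1 library as a yellow band, and filled points for the genes called by DESeq2. The intervals of *DUSP4*, *SPRED1* and *SPRY2* lie to 1 side of 0, and those of *DUSP5* and *SPRY1* are the widest. Dashed lines mark 0.5 and -0.5.

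For both ETS factors the 95% interval of the log2 fold change included 0. *ETV5* (ENSG00000244405.3) lies at chr3:185764103-185828107 (hg19, minus strand), and was at 100.2 and 98.1 CPM in the vector control and 106 and 98.5 CPM in OE. It differed by 0.04 on the log2 scale, with a 95% interval from -0.19 to 0.28 (edgeR adjusted p = 0.803). *ETV4* (ENSG00000175832.8), at chr17:41605212-41656988 (hg19, minus strand), was at 32.9 and 34.6 CPM in the vector control and 32.7 and 31.2 CPM in OE. Both OE values lay below the vector control values, the nearest by 32.7 against 32.9 CPM, and the log2 fold change was -0.08 (95% interval from -0.35 to 0.19, edgeR adjusted p = 0.69). Exons of *DHX8* overlap those of *ETV4* by up to 68 bases and exons of *DGKG* overlap those of *ETV5* by up to 119 bases. The third PEA3 factor, *ETV1*, was at 114 and 109 CPM in the vector control and 84.3 and 82.6 CPM in OE. Its log2 fold change was -0.42 (SE 0.0792, edgeR adjusted p = 0.115), and DESeq2 gave an adjusted p of 3.2e-07 with a fold change under the limit of 0.5. On the leading transcript the edgeR log2 fold change of *ETV1* was -1.41 (SE 3.13).

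**Figure D3:**
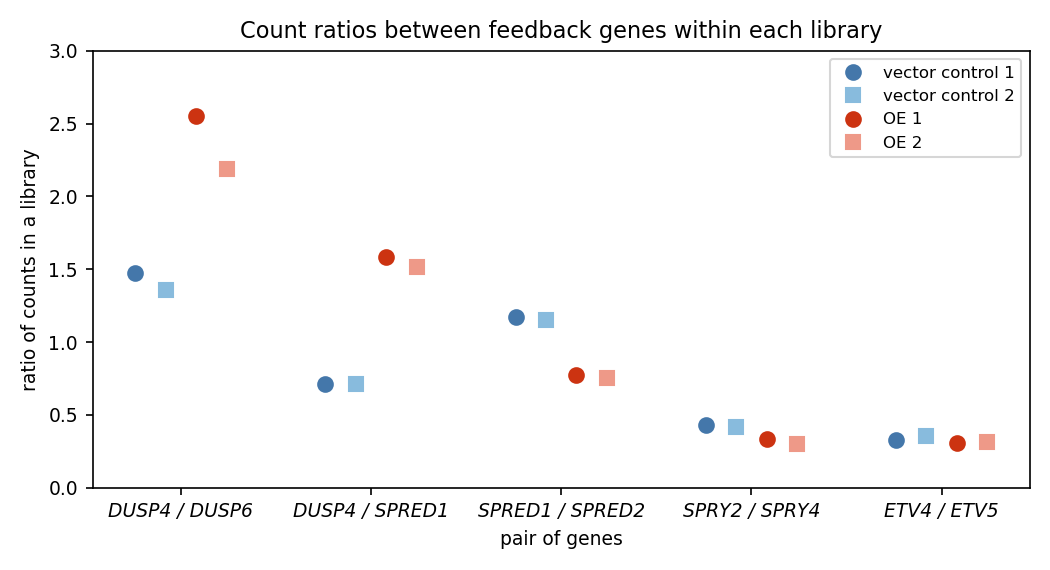
Counts of 1 feedback gene per count of another within each library (vertical axis, from 0), with vector control in blue and OE in red, circles for replicate 1 and squares for replicate 2. *DUSP4* per *DUSP6* is at 1.47 and 1.36 in the vector control and 2.55 and 2.19 in OE, while *ETV4* per *ETV5* is from 0.308 to 0.353 in the 4 libraries.

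Levels between genes were compared as CPM per kb of transcript, with transcript lengths from the GENCODE annotation lifted to hg19. On this scale the means over the 4 libraries ran from 6.64 CPM per kb for *SPRY1* and 14.2 for *ETV4* to 28.6 for *SPRED2* and 35.3 for *SPRY4*. The others in rising order were *SPRED1* (17.0), *DUSP6* (19.0), *DUSP5* (19.3), *SPRY2* (22.5), *DUSP4* (23.1) and *ETV5* (24.9). Of the 9 pairs of neighbours in this order, 3 had ranges over the 4 libraries that did not overlap, namely *SPRY1* below *ETV4*, *ETV5* below *SPRED2* and *SPRED2* below *SPRY4*. Within the vector control, *DUSP4* was at 18.8 and 17.7 CPM per kb, below the 19.6 and 20.04 of *DUSP6*, and within OE it was at 27.8 and 28.2, above the 16.5 and 19.7 of *DUSP6*.

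The counts of the 10 genes rested on few transcripts. The table lists 60 transcripts for them, of which 29 had counts. In 8 of the 10 genes, 1 transcript held from 99.0% (*SPRY4*, after rounding) to 100.0% (*DUSP5*, after rounding) of the counts over the 4 libraries. The exceptions were *SPRY2*, where ENST00000377102.1 held 88.8%, and *SPRY1*, where ENST00000394339.2 held 77.5%. The leading transcript was the same in the 4 libraries for 10 of 10 genes, beside 78.4% of 9768 tested genes with at least 2 listed transcripts and 10 CPM or more on average. In *SPRY2* the second transcript, ENST00000377104.3, which has a coding sequence of the same length (945 nt), held 10.9% and 12.6% of the counts in the vector control and 11.9% and 8.58% in OE, and the groups overlapped. In *SPRY1*, OE replicate 1 had 48 of its 172 counts on ENST00000505319.1, a transcript with 0 counts in the other 3 libraries, and 0 counts on ENST00000515726.1, which had 42, 44 and 81 counts in the others.

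Upstream of the feedback genes, 10 receptor genes and 21 genes of adaptors, RAS proteins and kinases were examined. Of the 9 receptors tested, 7 had lower and 2 higher values in OE, with a median log2 fold change of -0.26. edgeR called 0, and DESeq2 called 1 (beside 8.77% of all tested genes), *EGFR*, the receptor of EGF. *EGFR* was at 598 and 575 CPM in the vector control and 401 and 407 CPM in OE, with no overlap (log2 fold change -0.54, SE 0.0504, edgeR adjusted p = 0.0618, DESeq2 adjusted p = 8.8e-29). Of the 21 adaptor, RAS and kinase genes, 17 had lower and 4 higher values, with a median of -0.08, edgeR called 0 and DESeq2 called 1 (beside the same 8.77%), *HRAS*. *HRAS* was at 17.6 and 16.0 CPM in the vector control and 7.85 and 9.30 CPM in OE (log2 fold change -0.97, SE 0.154, edgeR adjusted p = 0.0951, DESeq2 adjusted p = 1.6e-06). With edgeR, 2 of the 9 receptors (1 higher and 1 lower) had an unadjusted p under 0.05, beside the 20.8% of all tested genes given above. So had 3 of the 21 cascade genes (2 higher and 1 lower), beside the same 20.8%.

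The other inhibitors of the pathway, listed together with phosphatases of other MAP kinases, also had values in both directions. Of 21 genes 19 were tested, of which 8 had higher and 11 lower values in OE, with a median log2 fold change of -0.05. edgeR called 0 of them, with 5 at an unadjusted p under 0.05 (2 higher and 3 lower, beside 20.8% of all tested genes), and DESeq2 called 2 (beside 8.77% of all), *SPRED3* (above) and *DUSP8*. *DUSP8*, a phosphatase that acts mainly on JNK and p38, was at 4.98 and 6.98 CPM in the vector control and 14.9 and 13.7 CPM in OE (log2 fold change 1.26, SE 0.222, edgeR adjusted p = 0.106, DESeq2 adjusted p = 6.3e-06). *DUSP7*, the closest relative of *DUSP6* in the list, was at 81.3 and 73.9 CPM in the vector control and 22.5 and 94.7 CPM in OE. As in *DUSP5*, OE replicate 1 stood apart, and the log2 fold change of -0.40 became 0.29 without it (edgeR adjusted p = 0.798 with that library and 0.43 without it).

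Of 15 other genes induced by ERK signalling, 13 were tested, 9 with lower and 4 with higher values in OE and a median log2 fold change of -0.42. edgeR called 0, with 4 at an unadjusted p under 0.05 (1 higher and 3 lower, beside 20.8% of all tested genes), and DESeq2 called 2 in opposite directions, beside 8.77% of all. *EGR1*, an immediate early transcription factor, was at 33.8 and 27.3 CPM in the vector control and 15.8 and 14.9 CPM in OE (log2 fold change -0.99, SE 0.153, edgeR adjusted p = 0.0933, DESeq2 adjusted p = 6.8e-07). *VGF*, a secreted neuropeptide precursor, was at 440 and 484 CPM in the vector control and 677 and 659 CPM in OE (log2 fold change 0.53, SE 0.0681, edgeR adjusted p = 0.0779, DESeq2 adjusted p = 1.5e-12). On the leading transcript the edgeR log2 fold change of *VGF* was 1.53 (SE 1.81).

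Of 11 regulators of transcription of the feedback genes (ETS factors, *CIC* and its partners, and the ubiquitin ligase subunits that remove ETV proteins), 7 had lower and 4 higher values, with a median log2 fold change of -0.09. *ETS2*, an ETS factor that ERK phosphorylates, was at 28.4 and 23.2 CPM in the vector control and 172 and 187 CPM in OE. Both OE libraries were far above both vector control libraries, and the log2 fold change was 2.80 (SE 0.146, edgeR adjusted p = 0.0317, DESeq2 adjusted p = 2.5e-76). The test called 0 of the 11 genes at an adjusted p under 0.01, 1 of the 11 (*ETS2*) at an adjusted p under 0.05, beside 0.594% of all tested genes, and 2 at an unadjusted p under 0.05, beside 20.8%. DESeq2 called 1, *ETS2*, beside 8.77% of all tested genes. Its edgeR adjusted p was 0.277 with the replicate number as a block, from 0.0599 to 0.0804 with 1 library left out and 0.869 on its leading transcript, so that the call at 0.05 was lost in each of these fits. The log2 fold change was 2.80 with the block, from 2.65 to 2.95 with 1 library left out and 1.83 (SE 3.34) on the leading transcript. With RLE normalization, either other filter or limma-voom, the adjusted p was from 0.0236 to 0.0324. The *ETS2* counts were on ENST00000360214.3 in OE replicate 1 (4275 counts) and on ENST00000360938.3 in OE replicate 2 (5349 counts).

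**Figure D4:**
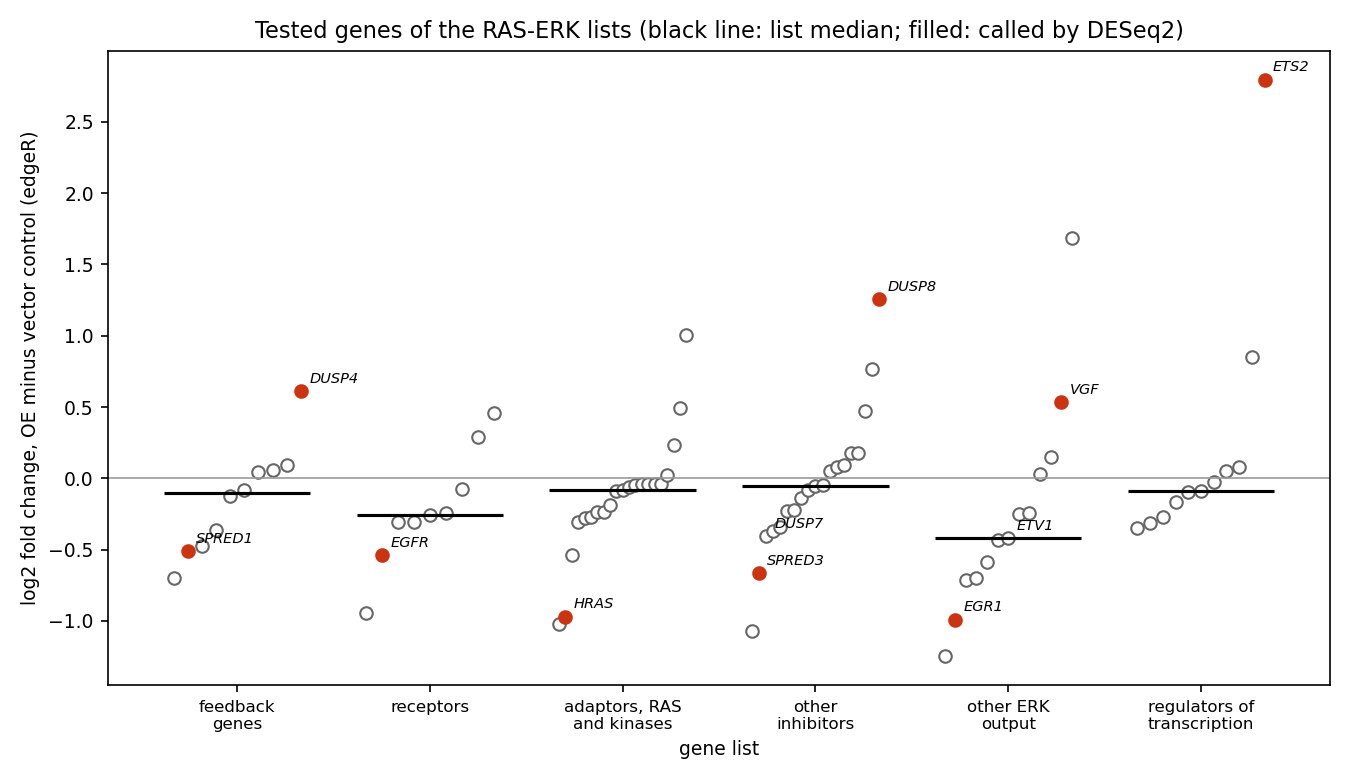
Log2 fold change (vertical axis, OE minus vector control, edgeR) of each tested gene in the 10 feedback genes and in the lists of 9 receptors, 21 adaptors, RAS and kinases, 19 other inhibitors, 13 other ERK output genes and 11 regulators of transcription. Black lines mark list medians, from -0.42 to -0.05, and filled points the genes called by DESeq2, among which *ETS2* is highest at 2.80.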

How the data were processed

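RNA-seq of 4 SK-N-SH libraries was analysed (2 *RP5-998N21.4* OE, 2 vector control, with replicate numbers from the titles). Per the paper's methods and the submitters' processing notes, reads were trimmed with Trimmomatic and mapped to hg19 with Bowtie2 (2.0.4), and StringTie (2.1.6), Picard (2.21.6) and DESeq2 were named. The authors deposited raw counts per transcript. The counting tool, annotation release and use of strand are not given in the sources used here. Counts were summed per gene, and genes passing filterByExpr (20528) were tested with edgeR 4.0.16 (R 4.3.3; TMM, quasi-likelihood, Benjamini-Hochberg over all tested genes, no covariates, 95% intervals from the same fit). The common dispersion was 0.122, with 1.75 prior and 2 residual degrees of freedom. DESeq2 1.42.0 and limma-voom (limma 3.58.1) were alternatives, beside other normalization, filters, a replicate block, leaving out each library, the transcript with the highest mean count and a threshold of 0.05. Scripts were tested on simulated data with a lower dispersion than these libraries, which checks the code and not the power of the tests here. Lengths and positions came from GENCODE v44 lifted to GRCh37, in which 93.1% of transcript IDs were found. The 10 genes, the lists and the tests were chosen with earlier results of these data known. Named were the 10 genes, the overexpressed gene, the relatives *ETV1*, *SPRY3*, *SPRED3* and *DUSP7*, and list genes called by edgeR or DESeq2. Genes named only for a transcript, an overlap or a pseudogene were chosen after their values were seen.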

Additional observations from a re-analysis of the deposited data

How the results depend on the processing

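edgeR called 0 genes of each list after RLE normalization, with either other filter, with the replicate block and on the leading transcript. limma-voom called 0 as well. The main fit also called 0 genes in all, so these counts do not show that a result was stable. DESeq2 called 1800 genes in all, 2 feedback genes, 1 receptor, 1 cascade gene, 2 other inhibitors, 2 other ERK output genes and 1 regulator of transcription. Over all genes, edgeR called 9 with a minimum of 1 count in total, 1 on the leading transcripts and 122 at an adjusted p under 0.05, of which 1 was a regulator of transcription. The median log2 fold change of the feedback genes stayed between -0.15 and -0.04 with a library left out, and from 7 to 8 of the 10 then had groups that did not overlap, beside 76.2% to 77.8% of all tested genes, as fewer libraries had to be separated. Direction turned with 1 library left out for *ETV5* (from -0.0095 without OE replicate 1 to 0.097), *SPRY4* (from -0.0023 without OE replicate 2 to 0.11) and *DUSP7* (from -1.79 to 0.29 without OE replicate 1). Over 7 alternatives that keep the 4 libraries, the adjusted p of *DUSP4* ranged from 2.9e-14 to 0.296, that of *SPRED1* from 7.7e-08 to 0.308 and that of *SPRY2* from 2.7e-05 to 0.333. On the leading transcript, the log2 fold change was -1.41 (SE 3.13) for *ETV1*, 1.53 (SE 1.81) for *VGF*, 1.83 (SE 3.34) for *ETS2*, -0.74 (SE 0.376) for *SPRY1*, -1.27 (SE 0.132) for *HRAS* and -0.34 (SE 0.146) for *SPRED3*, the last of them under the limit of 0.5. The replicate numbers are shared by the groups but give no other link, and the deviations of same-numbered libraries had a correlation of -0.02 across genes. With the replicate block, 0 feedback genes and 0 genes in all were called. A group left with 1 library was assumed to vary like the other. *SPRY1* rested on the fewest counts, at most 344 per library.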

Other observations

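Several genes around the feedback genes had their counts on different transcripts in different libraries. In the pathway lists, 47 of 60 tested genes with at least 2 listed transcripts and a mean of at least 10 CPM had the same leading transcript in the 4 libraries (78.3%, beside 78.4% over all such genes). *PHLDA1*, an ERK-induced gene, had 4202 and 10474 counts on ENST00000266671.5 in the vector control and 35 and 66 in OE, while ENST00000602540.1 had 0 in both vector control libraries and 5303 and 5851 in OE. Its sum was 180 and 446 CPM in the vector control and 213 and 205 CPM in OE. In *ETV1*, ENST00000343495.5 held 2659, 2537 and 2099 counts in both vector control libraries and OE replicate 1 and 0 in OE replicate 2, where ENST00000430479.1 held 2373. In *VGF*, vector control replicate 2 had 273 counts on ENST00000249330.2, where the other 3 libraries had from 10248 to 19066. These genes were chosen after their values were seen.

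Some pathway genes had replicates far apart, and in *SHC1* and *ETS1* the replicates of at least 1 group differed more than the group means did. The adaptor gene *SHC1* was at 38.5 and 925 CPM in the vector control and 600 and 64.6 CPM in OE, with 21684 and 15000 counts on ENST00000448116.2 in vector control replicate 2 and OE replicate 1 and at most 1 count there in the other 2 libraries. The ETS factor gene *ETS1* was at 422 and 42.3 CPM in the vector control and 424 and 412 CPM in OE. *MYC* was at 12.1 and 36.6 CPM in the vector control and 108 and 48.5 CPM in OE. The 2714 *MYC* counts of OE replicate 1 were on ENST00000377970.2, a transcript with 0 counts in the vector control and in OE replicate 2. The *MYC* replicates were 3.03-fold and 2.23-fold apart, and the lowest OE value exceeded the highest vector control value (3.21-fold between group means, edgeR adjusted p = 0.304). These were also chosen after their values were seen.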
